A study of Mus musculus with 47 samples.

Results

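The mitochondrial ribosomal proteins are described here in satellite cells, the stem cells that repair skeletal muscle, of mice on 2 diets. The members are all genes whose symbol is Mrpl or Mrps followed by a number, each read by its brightest probe set over the 47 arrays. They numbered 73 of 17097 genes, 46 of them of the large subunit by symbol (Mrpl) and 27 of the small subunit (Mrps). Of these, 71 members (44 and 27) were among the 10258 genes bright enough to be tested. Mrpl15 and Mrpl47 averaged 4.86 and 5.12 on the log2 scale and lay under the filter at 5.80, and the dimmest members above it were Mrpl44 at 5.90 and Mrpl46 at 5.96. Mrpl22, Mrpl45, Mrpl51, Mrps18c and Mrps28 were not analysed here.

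RNA came from satellite cells of wild type female C57B6/J mice that were given a high-fat diet (23 mice) or its matched control diet (24 mice), both eaten freely for 7 weeks from 8 weeks of age. The mice were sampled at 15 weeks of age at 6 zeitgeber times 4 h apart (ZT0 to ZT20, with ZT0 by convention lights on), with 4 mice in each diet and time group and 3 at high-fat ZT16. All mice of a time were collected on 1 day, so that diets are compared within a day, whereas time of day and collection day cannot be told apart within a diet. The labels call the samples biological replicates, 1 array each, and the pooling of animals is not mentioned. Values are deposited log2 expression values from Affymetrix arrays, which have no read depth. All 10 satellite cell markers measured were above the filter, Pax7 with a mean of 10.92 and Myf5 with 10.59. Array medians lay between 5.86 and 5.94, and arrays of a group correlated with each other at means of 0.969 to 0.987.

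Mitochondria carry ribosomes of their own, which descend from bacterial ones and make the few respiratory chain subunits that mitochondrial DNA encodes. All proteins of these ribosomes are encoded in the nucleus, made in the cytosol and imported, so their genes must be expressed together with the nuclear respiratory chain genes for complete complexes to form. Quiescent satellite cells hold few mitochondria, and mitochondrial content rises as they activate. Many members keep the number of their bacterial counterpart, and others exist only in mitochondria. The symbols do not follow the particle strictly, since Mrps18a and Mrps30 have been placed in the large subunit by structural work.

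The promoters of the members were rich in short sequences bound by NRF1, ETS factors such as GABP, and YY1, which are known regulators of nuclear genes for mitochondria. RefSeq promoter windows (GRCm38.p6, 250 bases before to 50 bases after a start site) were found for 65 of the 73 members, which had 71 windows, and motifs were searched as exact letters on both strands. The NRF1 letters GCGCANGCG stood in 19.7% of the members' windows, against 6.25% of all 32851 windows. The ETS letters CCGGAAG stood in 32.4% of the members' windows, against 8.86% of all windows. The YY1 letters AANATGGCG stood in 15.5% of the members' windows, against 2.38% of all windows. At least 1 of these 3 motifs was in 39 of the members' windows (54.9%), against 15.4% of all windows. The E-box CACGTG, the letters bound by the core clock factors, was in 8.45% of the members' windows and 7.15% of all windows, the D-box letters TTATGNAA in 1.41% and 3.38%, and the TATA box TATAAA in 7.04% and 13.6%. In no window of a member did matches of different motifs overlap. A match of letters is a description and not a binding site.

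5 windows are shown because their genes carry the results below. They were chosen after the values were seen. Mrpl27, Mrps18a and Mrpl12 hold matches, in capitals, and Mrpl23 and Mrpl41 hold none of the 6 motifs in their windows. Mrpl27, Mrpl23 and Mrpl41 all differed between the diets on average. Of the 65 members with windows, 14, 23 and 11 held the NRF1, ETS and YY1 letters. For the 7 of them called in any diet contrast these counts were 0, 1 and 1. For the 13 called as rhythmic on either diet they were 1, 6 and 6. These counts were not tested. The Mrpl27 window (chr11:94653541-94653840, plus strand) has the ETS letters and, just after the start site, the YY1 letters. The Mrps18a window (chr17:46110754-46111053, plus strand) has the same pair in the same order. The Mrpl12 window (chr11:120484387-120484686, plus strand) has the NRF1 letters, read here on the opposite strand. The Mrpl23 window is chr7:142532782-142533081 (plus strand) and the Mrpl41 window is chr2:24975049-24975348 (minus strand). The Mrpl23 window lies inside the annotated gene, which starts at 142532467. The sequence around that annotated start was not searched, so the lack of matches for Mrpl23 holds for this window alone.
Mrpl27: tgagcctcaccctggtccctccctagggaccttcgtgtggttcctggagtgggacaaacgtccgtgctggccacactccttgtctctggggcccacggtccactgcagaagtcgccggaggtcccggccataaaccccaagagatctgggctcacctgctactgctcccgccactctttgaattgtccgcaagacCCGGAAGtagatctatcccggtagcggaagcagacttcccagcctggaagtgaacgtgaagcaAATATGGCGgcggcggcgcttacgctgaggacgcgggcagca
Mrps18a: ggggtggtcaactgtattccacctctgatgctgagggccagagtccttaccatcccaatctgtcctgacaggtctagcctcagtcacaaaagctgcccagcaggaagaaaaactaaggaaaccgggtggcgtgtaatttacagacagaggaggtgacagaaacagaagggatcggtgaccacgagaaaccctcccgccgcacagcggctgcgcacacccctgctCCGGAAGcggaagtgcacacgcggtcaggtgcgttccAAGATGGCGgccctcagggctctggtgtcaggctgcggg
Mrpl12: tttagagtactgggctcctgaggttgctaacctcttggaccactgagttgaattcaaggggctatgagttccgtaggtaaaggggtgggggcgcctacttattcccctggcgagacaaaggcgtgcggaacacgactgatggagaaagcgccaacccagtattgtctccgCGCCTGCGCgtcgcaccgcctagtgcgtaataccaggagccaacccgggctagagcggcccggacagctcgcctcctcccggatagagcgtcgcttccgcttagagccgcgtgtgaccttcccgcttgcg
Mrpl23: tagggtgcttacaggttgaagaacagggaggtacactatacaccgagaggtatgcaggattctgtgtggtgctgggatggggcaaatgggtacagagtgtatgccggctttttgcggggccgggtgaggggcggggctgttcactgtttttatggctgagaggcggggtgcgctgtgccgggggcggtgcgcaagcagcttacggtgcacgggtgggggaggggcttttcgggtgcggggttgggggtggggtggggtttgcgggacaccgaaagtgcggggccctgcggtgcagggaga
Mrpl41: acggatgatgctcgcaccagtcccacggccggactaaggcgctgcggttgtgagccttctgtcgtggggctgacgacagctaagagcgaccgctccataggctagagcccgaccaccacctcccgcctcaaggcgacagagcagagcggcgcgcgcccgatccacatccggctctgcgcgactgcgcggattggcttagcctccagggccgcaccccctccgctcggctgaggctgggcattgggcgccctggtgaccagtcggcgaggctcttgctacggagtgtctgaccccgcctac

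The first comparison asks which members differed between high-fat and control mice over the day as a whole. On average over the 6 times, 5 of 71 members passed the test (limma, Benjamini-Hochberg adjusted p under 0.05 over all genes tested), 2 higher and 3 lower in high-fat mice. Among all genes tested 11.5% were called in this comparison (4.7% higher and 6.8% lower), against 7.04% of the members. These shares were not tested against each other. Mrpl23, Mrpl41 and Mrpl49 fell, and Mrps6 and Mrpl27 rose. The median difference over the members was -0.04 on the log2 scale, with 49 of 71 below 0, and that over all genes was -0.01. The median standard error (SE) of a member's average difference was 0.063.

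**Figure D1:**
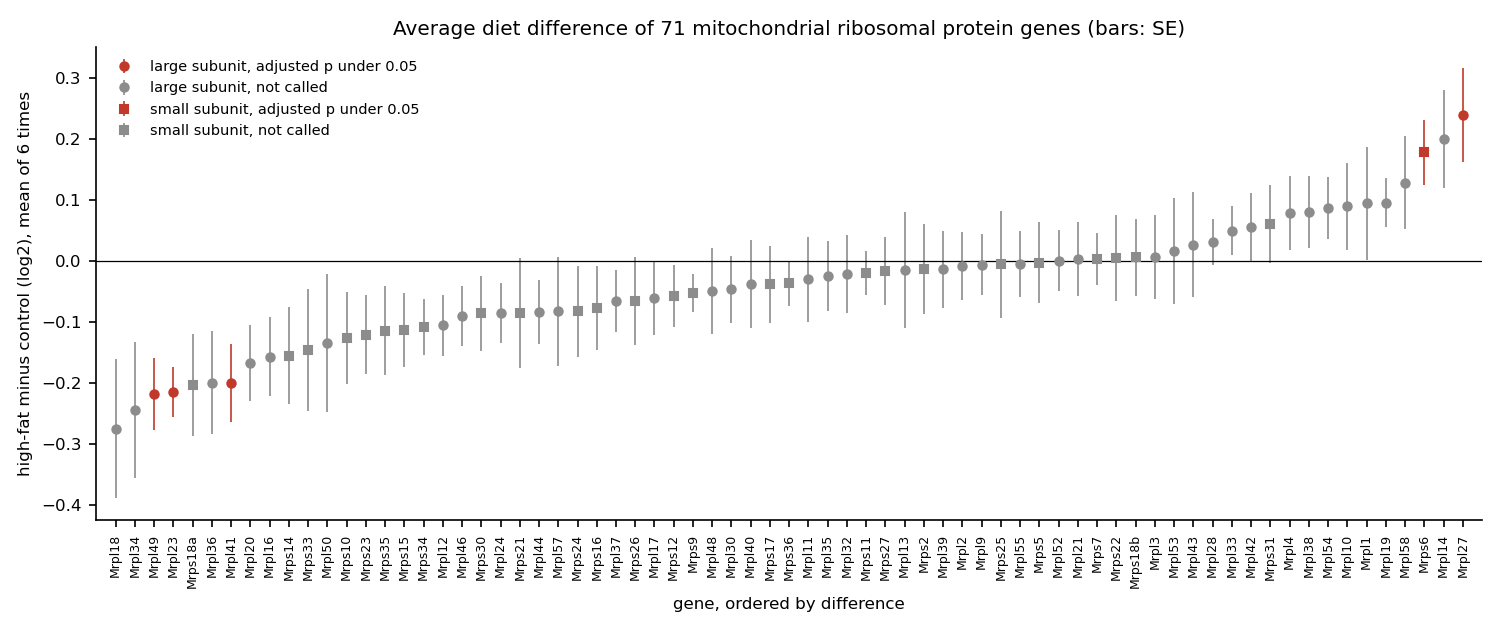
High-fat minus control difference (log2, mean of the 6 times) for each of the 71 tested members, ordered by size, with SE bars. Red points have an adjusted p under 0.05. The 5 called genes lie at -0.22, -0.21 and -0.20 (Mrpl49, Mrpl23, Mrpl41) and at 0.18 and 0.24 (Mrps6, Mrpl27), and Mrpl18 and Mrpl34 lie lower still without being called.

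Mrpl23 encodes a large subunit protein at the exit of the peptide tunnel. Its log2 values ran from 8.59 over a median of 8.99 to 9.59 in high-fat mice, against 9.03, 9.22 and 9.76 (lowest, median, highest) in control mice. It fell by 0.21 ± 0.04 on the log2 scale on the high-fat diet (SE, 23 high-fat and 24 control mice, limma adjusted p = 0.000606), a fall of its value by 13.8%. The difference was negative at 5 of the 6 times and near 0 at ZT4 (0.05 ± 0.10). At ZT0, ZT12 and ZT16 no high-fat mouse reached the lowest control mouse, while at ZT4, ZT8 and ZT20 the diets overlapped. At ZT16 the high-fat mice had 8.75, 8.95 and 8.70, against 9.09, 9.23, 9.21 and 9.25 in control mice, a difference of -0.39 ± 0.11 (limma adjusted p = 0.0119). The call at ZT16 was lost without high-fat mouse 1 or without high-fat mouse 3 of that time (adjusted p up to 0.0821).

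Mrpl49 and Mrpl41 encode large subunit proteins that have no bacterial counterpart. Mrpl49 ran from 7.00 over 7.60 to 8.02 in high-fat mice, against 7.45, 7.81 and 8.15 in control mice, and fell by 0.22 ± 0.06 (limma adjusted p = 0.0129). At ZT0 its values were 7.22, 7.17, 7.78 and 7.40 in high-fat mice, against 7.93, 8.15, 7.66 and 7.76 in control mice. High-fat mouse 3 lay within the range of the controls there and the other 3 lay below it. The difference at ZT0 was -0.48 ± 0.14 (limma adjusted p = 0.0479), a call that was lost when any 1 of 23 of the 47 mice was left out (adjusted p up to 0.157). A second Mrpl49 probe set above the filter differed by -0.07 on average and by -0.08 at ZT0.

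Mrpl41 ran from 7.21 over 7.69 to 8.47 in high-fat mice, against 7.50, 7.94 and 8.37 in control mice. Its average difference was -0.20 ± 0.06 (limma adjusted p = 0.0366), but the direction turned over the day, as described below. Leaving out 1 mouse lost this average call for 14 of the 47 mice (adjusted p up to 0.0591), without the ZT16 mice the average was -0.34, and with the mean of all Mrpl41 probe sets it was -0.11 and not called (adjusted p = 0.11).

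Mrps6 and Mrpl27 were the members called higher. Mrps6, the counterpart of bacterial S6 in the small subunit, ran from 8.45 over 9.12 to 9.52 in high-fat mice, against 8.42, 8.86 and 9.28 in control mice, and rose by 0.18 ± 0.05 (limma adjusted p = 0.0223). Its differences were positive at every time but ZT16 (-0.09 ± 0.14), and the diets overlapped at all 6 times. Mrpl27 is the counterpart of bacterial L27, which reaches toward the peptidyl transferase centre. It ran from 6.82 over 7.33 to 8.02 in high-fat mice, against 6.47, 7.05 and 7.84 in control mice, and rose by 0.24 ± 0.08 (limma adjusted p = 0.0375). The Mrpl27 call was lost when any of 17 of the 47 mice was left out (adjusted p up to 0.0582), and a second probe set above the filter differed by -0.01. With the mean of the Mrpl27 probe sets the difference was 0.11 and not called (adjusted p = 0.0832). Mrpl27 was highest above its controls at ZT20, where high-fat mice had 7.63, 6.82, 7.52 and 7.59, against 6.52, 7.06, 6.59 and 6.81 in control mice. High-fat mouse 2 lay among the controls, and the difference of 0.65 ± 0.19 was not called (limma adjusted p = 0.0822).

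The largest average difference belonged to a gene that was not called. Mrpl18, a protein of the central protuberance, ran from 5.58 over 6.44 to 6.99 in high-fat mice, against 5.79, 6.5 and 7.46 in control mice, with a difference of -0.27 ± 0.11 (limma adjusted p = 0.107). Mrpl34 differed by -0.24 ± 0.11 (adjusted p = 0.15) and Mrpl14 by 0.20 ± 0.08 (adjusted p = 0.0965). These 3 genes were singled out after their values were seen. On average over the day 4 of 10 satellite cell markers, 2 of 3 Schwann markers, 1 of 6 myofibre markers and 1 of 3 fibro-adipogenic markers were called higher in high-fat mice, and Cd68 and Pdgfrb lower, and their part in these results was not tested. In bulk RNA, fewer cells of a kind and less RNA per cell cannot be told apart.

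Respiratory chain and cytosolic ribosome genes are set beside the members for scale. Of 78 respiratory chain subunits tested, 23 were lower and 0 higher on the high-fat diet on average, with a median difference of -0.10. Of 65 cytosolic ribosomal proteins, 19 were lower and 0 higher, with a median of -0.04. The members' spread within groups was wider, with a median SD of 0.22 on the log2 scale, against 0.15 for respiratory chain subunits, 0.07 for cytosolic ribosomal proteins and 0.19 for all genes. Differences between these lists were not tested.

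**Figure D2:**
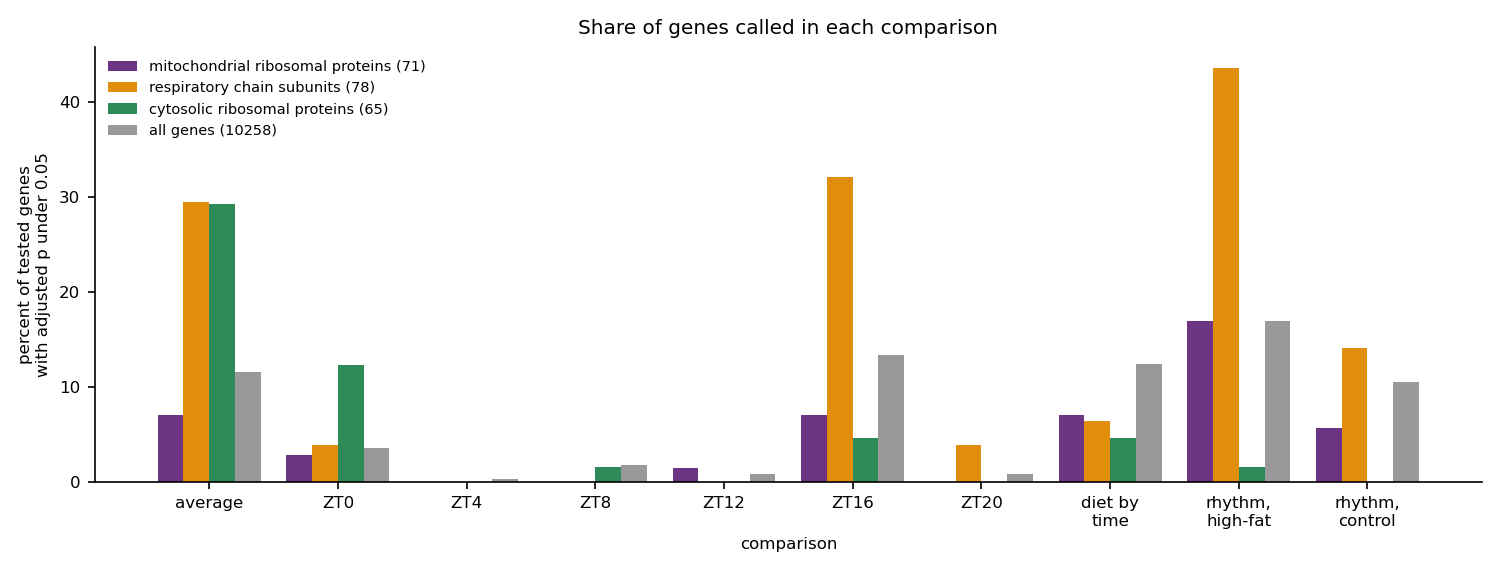
Percent of tested genes with an adjusted p under 0.05 in each comparison for mitochondrial ribosomal proteins (71), respiratory chain subunits (78), cytosolic ribosomal proteins (65) and all genes (10258). The members stand at 7.04% on average and at ZT16, against 11.5% and 13.3% of all genes, and at 16.9% for the rhythm in high-fat mice, where all genes also stand at 16.9%.

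The next comparison sets the diets against each other at each time. Of 426 differences (71 members at 6 times) 8 were called. At ZT0, 2 members were called, both lower (3.56% of all genes were called, 2.23% lower). At ZT12, 1 was called, also lower (0.858% of all genes, 0.39% lower). At ZT16, 5 were called, 2 higher and 3 lower (13.3% of all genes, 6.13% higher and 7.13% lower). No member was called by limma at ZT4, ZT8 or ZT20, where 0.312%, 1.78% and 0.819% of all genes were, and 5, 7 and 9 members had an unadjusted p under 0.05 at these times. Over the average and all times together, 8 members were called in at least 1 of these contrasts and 63 in none. The median SE of a member's difference at a time was 0.153.

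Mrpl41 was lower at ZT0 and ZT12 and higher at ZT16. At ZT0 its values were 7.31, 7.71, 7.67 and 7.22 in high-fat mice, against 7.93, 7.94, 7.98 and 8.23 in control mice, a difference of -0.54 ± 0.15 (limma adjusted p = 0.0391). At ZT12 they were 7.21, 7.52, 7.72 and 7.38 in high-fat mice, against 8.12, 7.80, 8.16 and 8.25 in control mice, a difference of -0.63 ± 0.15 (limma adjusted p = 0.0374). At ZT16 they were 8.29, 8.47 and 8.41 in high-fat mice, against 7.72, 7.89, 7.85 and 8.16 in control mice, a difference of 0.49 ± 0.17 (limma adjusted p = 0.0464). The diets did not overlap at any of these 3 times, and all 3 high-fat mice at ZT16 exceeded every high-fat mouse of the other times. Each of the 3 calls was lost when 1 of several mice was left out (6, 6 and 11 of the 47, with adjusted p up to 0.16). A second Mrpl41 probe set above the filter gave -0.55 at ZT0, -0.92 at ZT12 and 0.41 at ZT16, and correlated with the first at 0.59 over the 47 mice. Another, under the filter, gave -0.19, -0.03 and -0.12 at these times. With the mean of all Mrpl41 probe sets the difference at ZT16 was 0.26 and not called (limma adjusted p = 0.138). Those at ZT0 (-0.43, adjusted p = 0.0196) and ZT12 (-0.53, adjusted p = 0.0161) stayed called.

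Mrpl19, the counterpart of bacterial L19, had the smallest p of any member at a single time. At ZT16 it had 10.39, 10.31 and 10.38 in high-fat mice, against 9.78, 9.82, 9.52 and 9.73 in control mice, a difference of 0.65 ± 0.11 (limma adjusted p = 5.26e-05). The diets lay far apart at that time and overlapped at ZT12 and ZT20. The other Mrpl19 probe set above the filter went the opposite way at ZT16, with a difference of -0.33, and its correlation with the first was -0.11. With the mean of all Mrpl19 probe sets the difference was 0.10 and not called (adjusted p = 0.644). The probe sets therefore disagree on this gene.

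Mrps14 and Mrps15 encode small subunit proteins with bacterial counterparts, and both were lower at ZT16. Mrps14 had 7.30, 7.67 and 7.26 in high-fat mice, against 8.02, 8.31, 7.92 and 8.09 in control mice, a difference of -0.67 ± 0.21 (limma adjusted p = 0.0247). No high-fat mouse reached a control mouse, and all 3 lay below every other high-fat group mean of the gene. Its 2 other probe sets were under the filter and differed by 0.06 and -0.10 at this time, and with the mean of the 3 the difference was -0.24 and not called (adjusted p = 0.119). Mrps15 had 7.75, 8.24 and 7.57 in high-fat mice, against 8.30, 8.42, 8.55 and 8.17 in control mice, a difference of -0.50 ± 0.16 (limma adjusted p = 0.0281). High-fat mouse 2 lay within the control range. A second Mrps15 probe set differed by -0.64 at ZT16 and another by 0.05. For each of these genes the call was lost without high-fat mouse 1 or 3 and without 1 of 2 control mice of that time (replicates 2 and 4 for Mrps14, 2 and 3 for Mrps15), with adjusted p up to 0.121 for Mrps14 and 0.222 for Mrps15.

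Other measures moved at ZT16 beside these members. The summed level of the satellite cell markers was 13.91 to 13.98 in high-fat mice, against 13.70 to 13.84 in control mice on the log2 scale, with 2 of 10 markers called higher. That of the myofibre markers was 9.16 to 9.30 in high-fat mice, against 8.95 to 9.12 in control mice, with 2 of 6 tested markers called higher (Pvalb and Mylpf). That of the endothelial markers was 10.06 to 10.11 in high-fat mice, against 9.58 to 9.84 in control mice, with none of 3 called. The ranges of the fibro-adipogenic markers were 12.11 to 12.17 in high-fat mice, against 11.71 to 12.08 in control mice, and none of 3 was called. The ranges of the immune, smooth muscle, Schwann, erythroid and adipocyte markers overlapped between the diets at this time, with 1 Schwann marker (Mag) called higher. Ptprc, Adgre1, Lyz2, Csf1r, Kdr, Emcn, Pdgfra, Lum and Myh4 were under the filter. The part of these markers in the results at ZT16 was not tested.

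**Figure D3:**
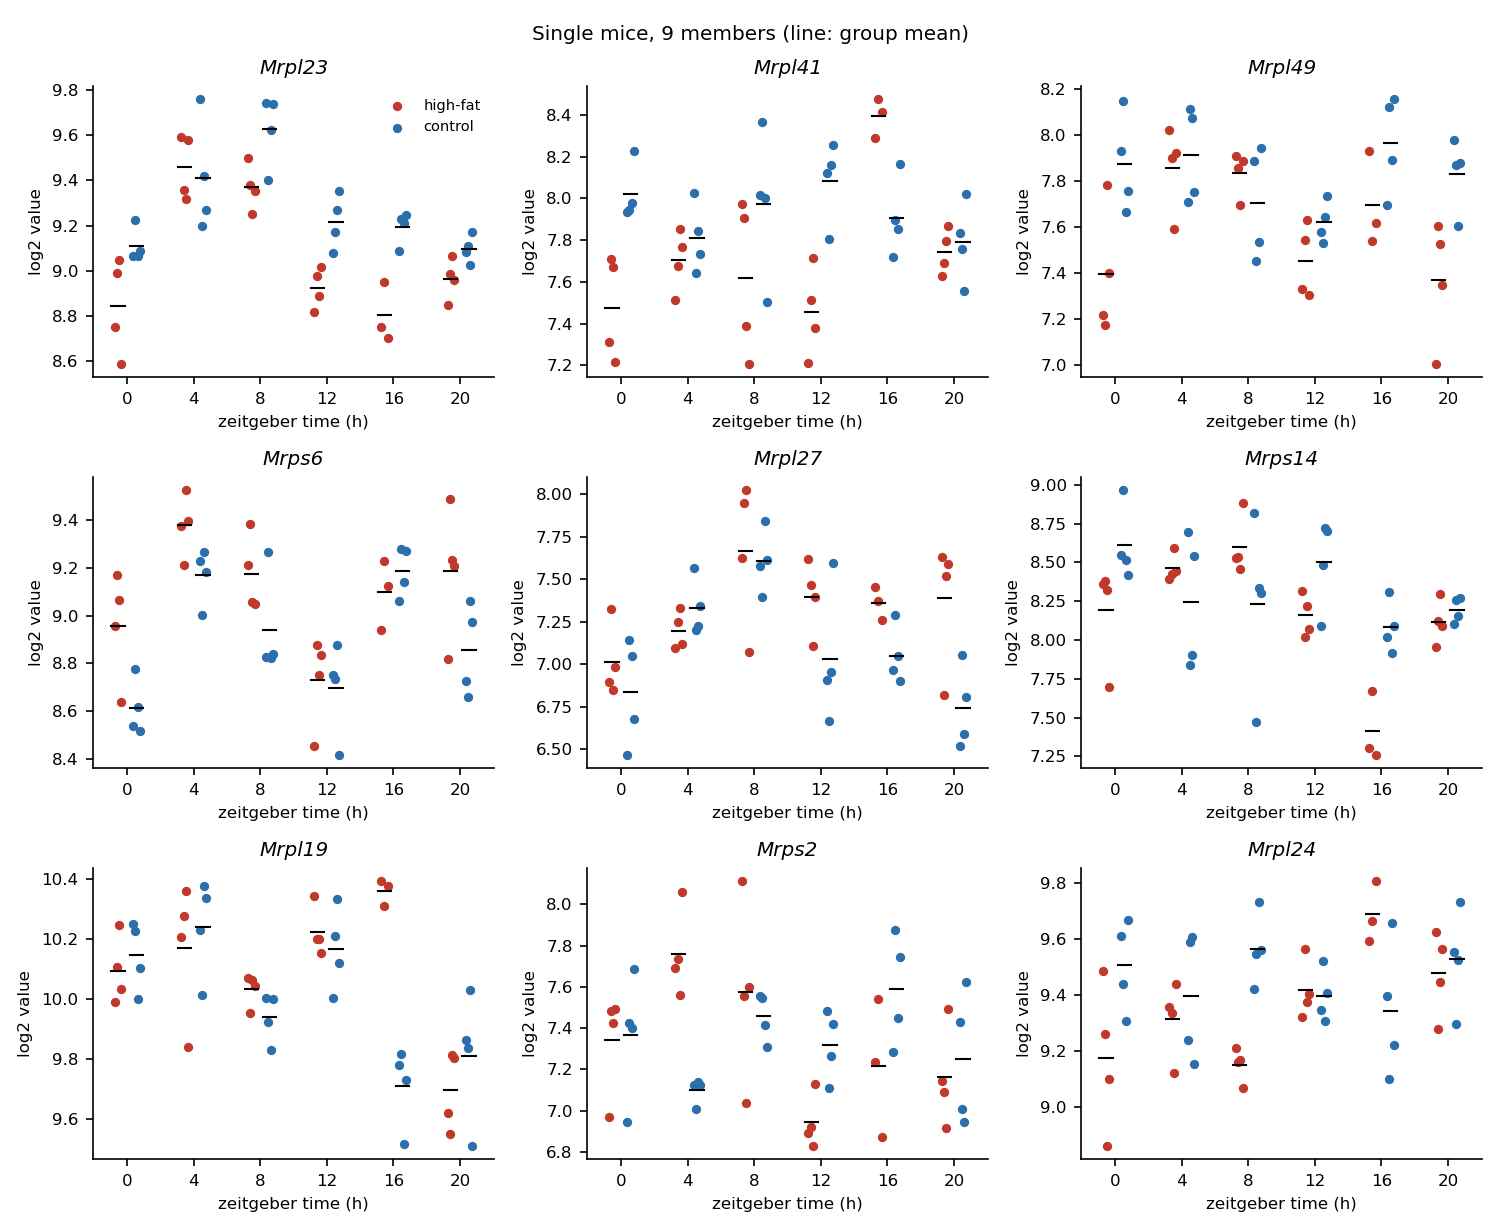
Log2 value of 9 members in each mouse (points) by zeitgeber time in hours, high-fat mice in red on the left and control mice in blue on the right of each pair, with lines at the group means. Mrpl23 lies lower on the high-fat diet at most times, Mrpl41 lies lower at ZT0 and ZT12 and higher at ZT16, and Mrpl19 and Mrps14 separate at ZT16.

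A test of the change of the diet difference over the 6 times called 5 members, against 12.4% of all genes. These were Mrpl19 (limma adjusted p = 0.0034), Mrpl41 (0.00764), Mrpl24 (0.0218), Mrps2 (0.028) and Mrps14 (0.0399). Without the ZT16 mice limma called none of the 71. With single mice left out, Mrpl19 and Mrpl41 kept their call, Mrpl24 lost it without high-fat mouse 3 of ZT16 (adjusted p = 0.0639), Mrps2 without any of 3 mice and Mrps14 without any of 8 (up to 0.0824). With the mean of a gene's probe sets Mrpl19, Mrps2 and Mrps14 were no longer called. Mrpl24, next to the exit tunnel, had 9.21, 9.16, 9.17 and 9.07 at ZT8 in high-fat mice, against 9.42, 9.55, 9.73 and 9.56 in control mice. No high-fat mouse reached a control mouse there, and the difference was -0.42 ± 0.12. At ZT16 it had 9.59, 9.66 and 9.81 in high-fat mice, against 9.40, 9.10, 9.66 and 9.22 in control mice, with overlapping diets and a difference of 0.35 ± 0.13. Neither difference was called at its own time (limma adjusted p = 0.0545 at ZT8 and 0.0641 at ZT16).

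Mrps2, the counterpart of bacterial S2, had 7.69, 7.74, 7.56 and 8.06 at ZT4 in high-fat mice, against 7.13, 7.01, 7.14 and 7.12 in control mice. The diets did not overlap at ZT4, where the difference was 0.66 ± 0.18 (not called, limma adjusted p = 0.0773). At ZT12 it had 6.89, 6.92, 6.83 and 7.13 in high-fat mice, against 7.48, 7.11, 7.26 and 7.42 in control mice, a difference of -0.38 ± 0.18 (not called, adjusted p = 0.323). Mrps2 was also the only member whose 24 h rhythm differed between the diets (limma adjusted p = 0.0427, against 2.11% of all genes called). That call was lost when any 1 of 29 of the 47 mice was left out (adjusted p up to 0.116). With the mean of the Mrps2 probe sets it was also lost (limma adjusted p = 0.506). A second Mrps2 probe set above the filter differed by 0.19 at ZT4. At ZT12 and ZT16 it differed by 0.13 and 0.10, against -0.38 and -0.37 for the probe set used.

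Within each diet, the daily course was tested with a 24 h cosine. On the high-fat diet 12 of 71 members had a rhythm (16.9% of all genes), and on the control diet 4 did (10.5% of all genes). Mrpl23 and Mrpl54 were rhythmic on both diets, against 4.71% of all genes. Of the 12 on the high-fat diet, 10 had their fitted peak between ZT2 and ZT9. These bounds were not set in advance. The share of all rhythmic genes that peak between them was not counted, so the window is not shown to be particular to the members. A rhythm called on 1 diet and not on the other is not shown to differ, and Mrps2 alone passed the test of that difference.

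Mrpl54, a large subunit protein grouped here with the stalk that receives translation factors, had nearly the same course on both diets. Its group means from ZT0 to ZT20 were 6.29, 6.54, 6.55, 6.18, 6.02 and 6.07 on the high-fat diet, against 6.14, 6.44, 6.43, 6.14, 6.00 and 5.98 on the control diet. In high-fat mice the fitted amplitude (mean to peak, log2) was 0.29 ± 0.05, peaking at 5.46 ± 0.634 h (limma adjusted p = 0.000222), against 0.26 ± 0.05 and 6.02 ± 0.705 h in control mice (adjusted p = 0.00084). Mrpl23 had an amplitude of 0.31 ± 0.05 in high-fat mice, peaking at 5.81 ± 0.647 h (limma adjusted p = 0.00027), against 0.23 ± 0.05 and 7.47 ± 0.853 h in control mice (adjusted p = 0.00654). Both genes were highest around ZT4 to ZT8, and low from ZT16 to ZT20 (Mrpl23 also at ZT0 and, on the high-fat diet, at ZT12).

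On the high-fat diet the Mrps14 probe set used had the largest amplitude among the called members, 0.43 ± 0.09 with a peak at 5.18 ± 0.811 h (limma adjusted p = 0.00392). Without the ZT16 mice its amplitude was 0.27 and not called (adjusted p = 0.183), and with the mean of the 3 Mrps14 probe sets it was 0.16 and still called (adjusted p = 0.0177). Mrpl36 (0.35 ± 0.09, peak at 6.09 h), Mrps2 (0.34 ± 0.08, 4.05 h), Mrps18a (0.33 ± 0.09, 6.81 h), Mrpl35 (0.32 ± 0.06, 4.97 h) and Mrpl3 (0.26 ± 0.07, 8.38 h) had their peak in the same part of the day. Mrpl35 had group means of 7.31, 7.74, 7.54, 7.26, 6.97 and 7.21 from ZT0 to ZT20 on the high-fat diet, against 7.46, 7.35, 7.43, 7.49, 7.27 and 7.17 on the control diet. Mrpl58, a peptidyl-tRNA hydrolase built into the large subunit, peaked instead at 13.8 ± 1.12 h (0.26 ± 0.08), and Mrpl24 at 16.5 ± 0.941 h (0.21 ± 0.05). Leaving out single high-fat mice lost the calls of Mrps18a (6 mice), Mrpl3 (9 mice), Mrpl58 (9 mice), Mrpl12 (2 mice) and Mrpl24 (mouse 3 of ZT16), with adjusted p up to 0.124. With the mean of a gene's probe sets the rhythms of Mrpl58 (amplitude 0.10, limma adjusted p = 0.276), Mrpl3 (0.17, adjusted p = 0.113) and Mrps2 (0.22, adjusted p = 0.088) were no longer called on the high-fat diet.

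On the control diet Mrpl27 had the largest amplitude among the called members, 0.37 ± 0.08 with a peak at 7.74 ± 0.849 h (limma adjusted p = 0.00628), against 0.21 ± 0.08 on the high-fat diet (not called, adjusted p = 0.165). Its group means from ZT0 to ZT20 were 7.01, 7.20, 7.67, 7.40, 7.36 and 7.39 on the high-fat diet, against 6.84, 7.33, 7.61, 7.03, 7.05 and 6.74 on the control diet. Mrps27 had an amplitude of 0.20 ± 0.06 and peaked at 6.16 ± 1.10 h in control mice (limma adjusted p = 0.046), a call lost when any 1 of 16 mice was left out (adjusted p up to 0.103).

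With time as a random block, which allows for days that differ, 4 members stayed called on the high-fat diet (Mrpl54, Mrpl23, Mrpl35 and Mrps14), and 1 on the control diet (Mrpl54). A test of any difference among the 6 times, with no assumed shape, called 25 members on the high-fat diet (40.1% of all genes) and 19 on the control diet (36.3% of all genes), 10 of them on both (21.2% of all genes). Mrpl9, singled out after its values were seen, was called on both diets by this test and not by the cosine. Its group means from ZT0 to ZT20 were 7.79, 8.10, 8.08, 7.73, 8.36 and 8.06 on the high-fat diet, against 7.67, 8.00, 8.07, 7.84, 8.51 and 8.08 on the control diet, with a high at ZT16 and lows at ZT0 and ZT12 on both.

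**Figure D4:**
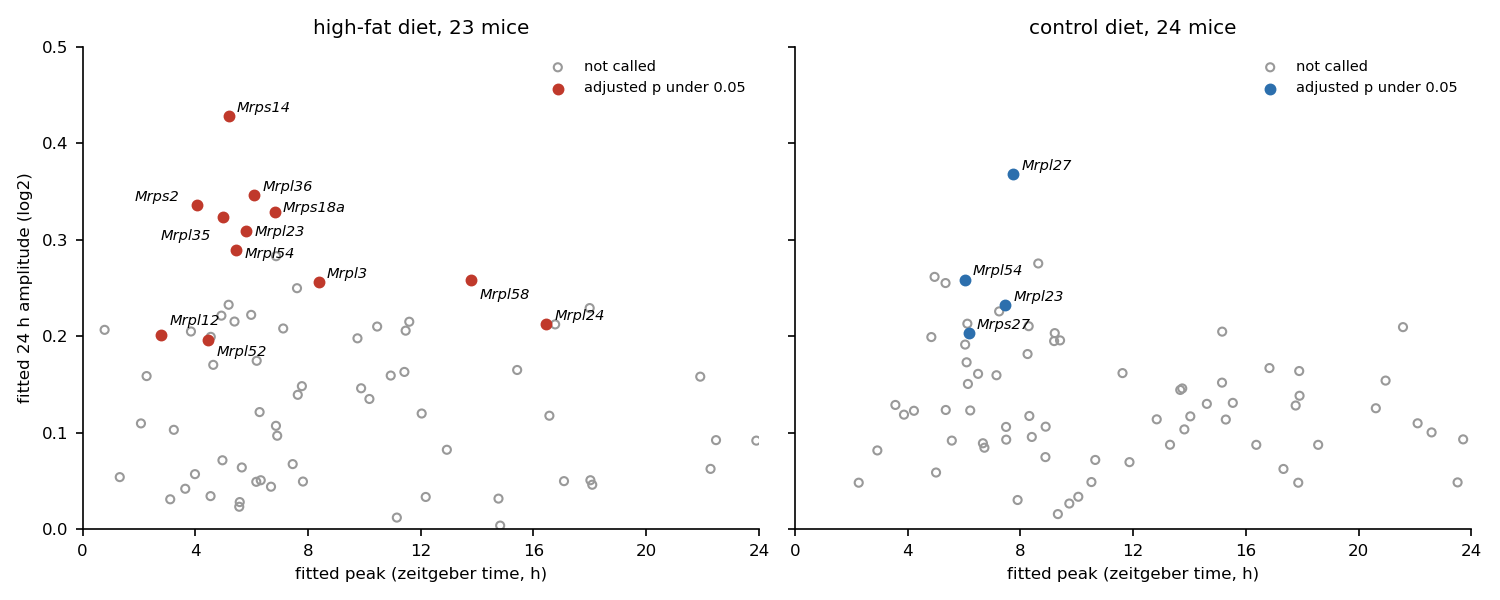
Fitted 24 h amplitude (log2) against fitted peak (zeitgeber time in hours) of each tested member, on the high-fat diet (left) and the control diet (right). Filled points have an adjusted p under 0.05, and 10 of the 12 on the high-fat diet peak between ZT2 and ZT9 (bounds not set in advance).

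The mean of the 71 members moved little. In the high-fat group it was 7.58 at ZT0, 7.77 at ZT4, 7.71 at ZT8, 7.62 at ZT12, 7.64 at ZT16 and 7.58 at ZT20, against 7.66, 7.74, 7.73, 7.71, 7.70 and 7.62 in the control group. On the high-fat diet every mouse of ZT4 (7.69 to 7.84) lay above every mouse of ZT0, ZT12, ZT16 and ZT20, where time and collection day cannot be told apart. At ZT12 the high-fat mice lay between 7.60 and 7.65, against 7.67 to 7.76 in control mice, without overlap, and the diets overlapped at the other 5 times. These separations were not tested. The mean of the 78 respiratory chain subunits also separated at ZT12 (9.25 to 9.30 in high-fat mice, against 9.36 to 9.48 in control mice). That of the 65 cytosolic ribosomal proteins overlapped there. The median of the members' differences at ZT12 was -0.10, with 51 of 71 below 0, against 0.00 over all genes.

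**Figure D5:**
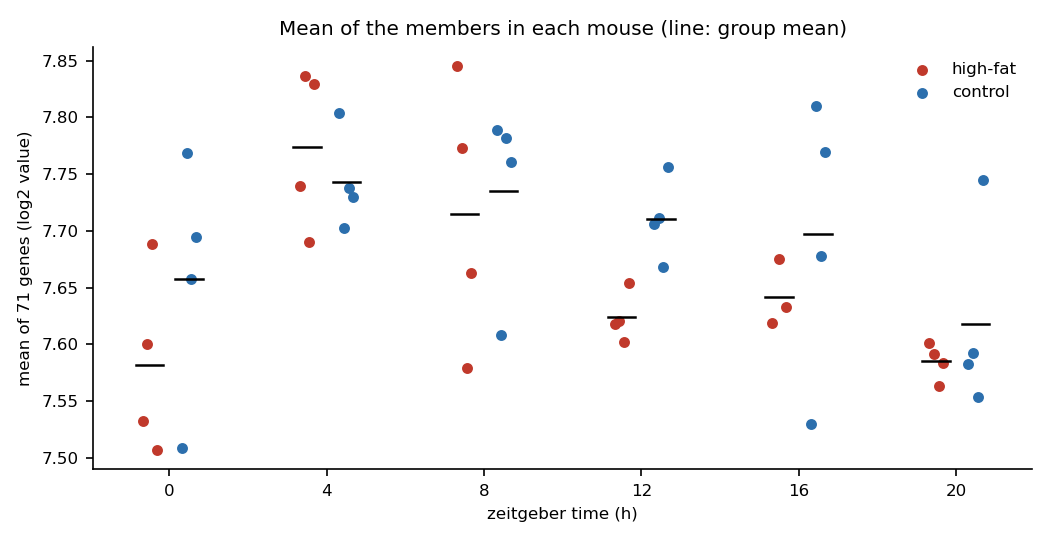
Mean of the 71 tested members (log2) in each mouse by zeitgeber time, high-fat mice on the left and control mice on the right of each pair, with lines at the group means. The diets separate at ZT12, where the high-fat mice lie between 7.60 and 7.65, and overlap at the other times.

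The members varied together only weakly from mouse to mouse. After removing the group means, the median correlation between pairs of members over the 47 mice was 0.11, against 0.19 among respiratory chain subunits, 0.35 among cytosolic ribosomal proteins and 0.01 among all genes. These values are descriptions, and the points share their arrays. The lists also differ in their spread within groups, as given above, and its part in these correlations was not tested. Mrps21, Mrpl21 and Mrps2 followed the mean of the other members most closely (0.64, 0.64 and 0.63), while Mrpl19 and Mrps25 ran against it (-0.22 and -0.18). Of the members, 38 had several probe sets, and 32 of the other probe sets were above the filter, with a median correlation of 0.32 with the one used.

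The members were also grouped by their place in the particle. Of the 4 tested proteins around the peptide exit tunnel, Mrpl23 was lower on average, and Mrpl17, Mrpl24 and Mrpl44 were not called. Of the 7 in the central protuberance, Mrpl27 was higher and 6 were not called. None of the 5 stalk proteins was called on average, and 2 of them, Mrpl54 and Mrpl12 (0.20 ± 0.05, peak at 2.78 h), were rhythmic on the high-fat diet. None of 7 proteins of the body and decoding region or of 8 proteins of the head of the small subunit was called on average, where all 7 and 6 of 8 estimates were below 0. Those of the 7 ran from -0.11 (Mrps34) to -0.003 (Mrps5), and the median over all genes was -0.01. The share of all genes below 0 is not given here, so these counts are not shown to be particular to the members. Of the 4 ribosomal proteins under other symbols, Chchd1 was lower by -0.13 ± 0.04 (limma adjusted p = 0.0235) and Dap3, Ptcd3 and Gadd45gip1 were not called.

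The rest of the mitochondrial translation machinery was measured on the same arrays. Of 10 translation factors, 3 were called on average, where 11.5% of all genes were. Tufm, the elongation factor that brings aminoacyl-tRNA to the ribosome, ran from 5.57 over 6.16 to 6.77 in high-fat mice, against 5.86, 6.48 and 6.90 in control mice, and fell by 0.25 ± 0.06 (limma adjusted p = 0.00713). At ZT16, where 13.3% of all genes were called, 3 of the 10 were called. Tufm (-0.91 ± 0.16, limma adjusted p = 0.000215) and the initiation factor Mtif2 (-0.49 ± 0.15, adjusted p = 0.0306) were lower, and Gfm2, which helps to recycle the ribosome, was higher (0.48 ± 0.13, adjusted p = 0.0102). On average over the day Oxa1l, which inserts newly made proteins into the inner membrane, fell by 0.15 ± 0.05 (adjusted p = 0.0426), and Guf1, the relative of bacterial LepA, rose by 0.13 ± 0.05 (adjusted p = 0.0485).

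Of 15 assembly and rRNA modification genes, C1qbp was lower (-0.13 ± 0.04, limma adjusted p = 0.0296) and 14 were not called on average. At ZT16, 2 of the 15 were called, Mpv17l2 higher (0.61 ± 0.19, limma adjusted p = 0.0236) and C1qbp lower (-0.33 ± 0.11, adjusted p = 0.0376). None of 13 tRNA synthetase and amidotransferase genes was called on average, and 1 of the 13, Gatc, was called at ZT16, where it was lower (-0.55 ± 0.11, limma adjusted p = 0.001). Of 12 genes of mitochondrial transcription, RNA processing and DNA replication, 3 were lower and none higher on average (6.8% of all genes were lower and 4.7% higher). They were the transcription factor Tfb2m (-0.25 ± 0.06, limma adjusted p = 0.00826), the helicase Twnk (-0.11 ± 0.03, adjusted p = 0.0249) and the tRNA 3′ end nuclease Elac2 (-0.14 ± 0.05, adjusted p = 0.0477). At ZT16, 1 of the 12 was called, Polg2, the accessory subunit of the mitochondrial DNA polymerase, which was higher (0.52 ± 0.13, limma adjusted p = 0.00723). Of 8 regulators of mitochondrial genes none was called on average, and at ZT16, 3 of the 8 were lower and none higher. These were the coactivators Ppargc1b (-1.04 ± 0.24, limma adjusted p = 0.0031) and Pprc1 (-0.56 ± 0.16, adjusted p = 0.0187) and the receptor Esrra (-0.50 ± 0.12, adjusted p = 0.0033). Nrf1, Gabpa and Yy1, which bind the promoter letters shown above, differed by 0.05 ± 0.05, 0.12 ± 0.05 and -0.01 ± 0.04 on average and were not called.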

How the data were processed

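Each biological replicate had 1 array and is counted here as 1 mouse. The authors deposited log2 expression values per probe set, made with robust multi-array averaging (RMA), per the submitters' processing notes. Its settings were not given in the sources used here. RMA equalises the arrays by quantiles, so a difference is one relative to most other genes. Per the labels' protocols, amplified cDNA was hybridised. Of 45141 probe sets, those with several or no gene symbols and 104 control probe sets were left out. The brightest probe set of each of 17097 genes was kept, and genes with a mean under the 40th percentile (5.80) were not tested. Probe sets differ in brightness, so levels were not compared between genes. Tests used limma 3.58.1 in R 4.3.3 (lmFit, eBayes with an intensity trend), two-sided, on all 47 mice with 12 group means or a 24 h cosine and sine per diet, with Benjamini-Hochberg adjustment over 10258 genes and a threshold of 0.05. All adjusted p-values are from limma, and values after ± are its standard errors. The models were tested on simulated data. Tables were made with Python 3.11.15 and pandas 2.3.3.

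The members and lists were chosen with earlier results of these data known. Genes were named by a rule: on average the 10 largest called differences, per time the 4 largest, per rhythm the 10 largest amplitudes, per interaction all up to 8, per list up to 4 by p. The rule's 5 highest and 5 lowest levels are not given, since levels are not compared between probe sets. Marker levels are log2 of the summed linear values. Replicate numbers in the labels did not pair mice (correlations of deviations between same-numbered mice from -0.19 to 0.11). Alternatives were no filter, the mean of a gene's probe sets, cyclic loess, no trend, array weights, a replicate block, time as a random block, no ZT16 mice, and each mouse left out.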

Additional observations from a re-analysis of the deposited data

Results flagged for a closer look

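In 132 groups of 4 mice looked at (11 members called for diet, for the interaction, for the rhythm difference or for a rhythm on both diets, and the mean of the members), 9 mice stood apart from the other 3 of their group, where chance alone marks about 1 in 20 groups. In high-fat mice these were Mrpl27 at 6.82 in mouse 2 of ZT20, Mrps14 at 7.69 in mouse 4 of ZT0 and Mrps2 at 6.97 in mouse 1 of ZT0, each the lowest of its group. In control mice Mrpl23 at 9.23 in mouse 2 of ZT0, Mrpl41 at 8.23 in mouse 4 of ZT0 and Mrps6 at 9.27 in mouse 2 of ZT8 were the highest of their groups. Also in control mice, Mrpl54 at 5.77 in mouse 1 of ZT16, Mrps2 at 7.01 in mouse 2 of ZT4 and the mean of the members at 7.61 in mouse 2 of ZT8 were the lowest.

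The diet difference changed with time for 5 members by limma's interaction test, Mrpl19 (adjusted p = 0.0034), Mrpl41 (0.00764), Mrpl24 (0.0218), Mrps2 (0.028) and Mrps14 (0.0399). The 24 h rhythm of Mrps2 differed between the diets (adjusted p = 0.0427).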

How the results depend on the processing

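The average calls of Mrpl23, Mrpl49 and Mrps6, the rhythms of Mrpl54 on both diets, and those of Mrpl23 and Mrpl35 on the high-fat diet were kept under all alternatives run. Mrpl23 and Mrps6 had 1 probe set each, so the mean of probe sets could not change their values. Time as a random block was run for the rhythms and not for the diet contrasts. No result changed its direction. The number of arrays limits the precision. At ZT0, where 2 members were called, the count was 1 with the mean of probe sets, cyclic loess or array weights, and 0 with no filter, the replicate block or without the ZT16 mice. At ZT12, where 1 was called, it was 0 with no filter, the replicate block or without the ZT16 mice. At ZT16 the 5 calls became 3 with the mean of probe sets and 16 with array weights. Array weights also gave 1 call at ZT8, and the mean of probe sets 1 at ZT20. The 5 interaction calls became 3 with the mean of probe sets and 0 without the ZT16 mice. The 12 rhythms on the high-fat diet became 4 with time as a random block. The 4 on the control diet became 7 with the mean of probe sets, 8 with array weights and 1 with time as a random block. The rhythm difference went to 0 with no filter, the mean of probe sets, the replicate block or without the ZT16 mice, and to 2 with cyclic loess, no trend or array weights. The causes were not tested, other than that fewer mice or more genes enter some fits. The shares of all genes called under these settings, or with single mice left out, are not given here. A changed count is therefore not shown to be particular to the members.

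The replicate block gave 4 calls on average, 4 at ZT16, 4 for the interaction, 12 for the high-fat rhythm and 3 for the control rhythm. The numbers do not pair the mice. Leaving out 1 mouse gave 3 to 6 calls on average, 0 to 2 at ZT0, 0 to 1 at ZT8, ZT12 and ZT20, 0 at ZT4, 1 to 6 at ZT16, 2 to 7 for the interaction, 9 to 14 and 3 to 7 for the rhythms on the high-fat and control diets, 0 to 2 for their difference, and 22 to 27 and 13 to 20 for any difference among times on the high-fat and control diets. The ZT16 count was 1 without high-fat mouse 1 or 3 of that time.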
